A study of Mus musculus with 4 samples.

Results

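The cells described here were Xcl1+ Ly49- cells of mouse melanoma: lymphoid cells with transcripts of Ncr1 or Klrb1c (the natural cytotoxicity receptor NKp46 and the receptor NK1.1) and of the chemokine gene Xcl1, but with no transcript of Klra8, Klra4 or Itga2. They were chosen by their own counts of unique molecular identifiers (UMIs, which count captured transcripts) in a sort of all CD45+ tumor-infiltrating leukocytes. A cell needed at least 2 UMIs of Ncr1 and Klrb1c together, at most 1 UMI of Cd3d, Cd3e and Cd3g together, at most 2 UMIs of C1qa, C1qb and C1qc together, fewer than 5 Gzmc UMIs, 0 UMIs of Klra8, Klra4 and Itga2 and at least 1 Xcl1 UMI. In the ZsGreen-negative library 290 of 4699 cells met the rule (6.17%, exact binomial 95% interval 5.50 to 6.90), which was 14.0% of the 2069 cells past the Ncr1 and Klrb1c, Cd3 and C1q limits, and in the ZsGreen-positive library 14 of 4123 did. The cells were compared with Ly49+ NK cells, which passed the same first 4 limits and held 2 or more UMIs of Klra8, Klra4 and Itga2 (1298 cells of the ZsGreen-negative library). The 171 cells with exactly 1 such UMI belonged to neither group.

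The mice were wild-type C57BL/6 animals with subcutaneous tumors of B16-F10 melanoma, grown from 1 clone whose cytoplasmic fluorescent protein ZsGreen (ZsG), carried by a lentiviral vector, was switched on by doxycycline (dox). All mice drank dox water for 4 days before the tumors were collected on day 8. CD45+ cells were sorted by ZsG into 2 libraries, ZsG-negative and ZsG-positive, and a further experiment sorted TCRβ+ T cells in the same way. ZsG in an immune cell thus marked material from tumor cells, and by the account of the study most lymphocytes with some ZsG fell into the ZsG-negative gate of the CD45+ sort, so that gate does not hold only cells free of ZsG.

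Each of the 4 libraries was the only one of its gate. No value below therefore describes the spread between mice, no test between groups was possible, and every interval covers counting error only. Levels are UMIs of a gene per 1000000 UMIs of the cell group (CPM) with exact Poisson intervals, differences are log2 ratios of such levels with an exact 95% interval, and levels of different genes were not corrected for length because the method counts 3′ ends. Xcl1+ Ly49- and Ly49+ NK cells of the ZsG-negative library had close depths, with medians of 4641.5 and 4503.5 UMIs per cell and 1708.5 and 1682 genes, and summed to 1645743 and 6871618 UMIs. In all, 5437 barcodes with 47537541 UMIs were deposited for the ZsG-negative and 5168 with 56510578 UMIs for the ZsG-positive library. They shared 6 barcodes, 1 of them that of an Xcl1+ Ly49- cell.

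NK cells and type 1 innate lymphoid cells (ILC1) are lymphocytes without a rearranged antigen receptor that share Ncr1, Klrb1c and the ability to make interferon γ. Circulating NK cells depend on the transcription factor Eomes, carry receptors of the Ly49 family (Klra genes), which read MHC class I, and the integrin CD49b (Itga2), and kill with granzymes and perforin, while ILC1 stay in tissues, are known in mice for CD49a (Itga1), CXCR6, the IL-7 receptor, CD200R1 and TRAIL (Tnfsf10), and often lack Eomes. XCL1 is the chemokine that draws cross-presenting dendritic cells through its receptor XCR1. In tumors and inflamed tissue NK cells can take on some ILC1 features, so single markers do not always part them.

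The limits of the rule cut through continuous distributions. Xcl1 (chr1:164931644-164935527 on GRCm38) had a median of 4 UMIs per Xcl1+ Ly49- cell, with an interquartile range of 2 to 11.75 and a maximum of 173. Just inside the Xcl1 limit lay 57 cells with a single UMI (median depth 3771 UMIs) and just outside lay 97 cells with none (3743 UMIs). Beyond the Ly49 limit lay 123 cells that met every other limit and had 1 UMI of Klra8, Klra4 and Itga2. At the Ncr1 and Klrb1c limit 34 cells had 2 UMIs and 34 had 1, at the Cd3 limit 40 had 1 and 4 had 2, and at the Gzmc limit 7 had 4 and 5 had 5. Xcl1 was not particular to these cells: 66.5% of Ly49+ NK cells (63.8 to 69.1) had an Xcl1 UMI, with a summed level of 864 CPM against the 2040 CPM of the cells chosen for it.

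The name ILC1-like had been given to these cells with 5 markers, of which Ncr1, Klrb1c and Xcl1 are part of the rule and so say nothing. Of the other 2, Car2, a carbonic anhydrase, stood at 312 CPM in Xcl1+ Ly49- cells and 225 CPM in Ly49+ NK cells, a log2 ratio of 0.47 (0.32 to 0.62). Styk1, a kinase-like protein, stood at 80.2 and 104 CPM, a log2 ratio of -0.36 (-0.65 to -0.10). Both label markers thus had close levels in the groups, and they differed in opposite directions. Eomes had a UMI in 40.3% of the cells and Gzma, the granzyme A gene, in 84.1%, and Zfp683, which encodes Hobit, had 0 UMIs in either group, so the label was borne out only in part and the cells are called here by their rule.

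Against Ly49+ NK cells, Xcl1+ Ly49- cells had more of tissue-resident ILC1 genes, of the receptor genes Klrc1, Klrb1b and Cd226 and of the chemoattractant receptor Gpr183, while Gzma and Eomes stood below their levels there by less than 2-fold. Of 9846 genes with at least 20 UMIs over both groups and outside the rule, 263 (2.67%) were at least 2-fold higher and 273 (2.77%) at least 2-fold lower, and the median log2 ratio was 0.001. Of these, 208 and 144 had an interval that left out 0, and the other calls were not beyond counting error. The intervals hold for single genes and were not adjusted for the number of genes tested. In simulated UMI sums with counting error only, 2.37% of unchanged genes passed the 2-fold limit in either direction. Among those with at least 100 UMIs it was 0.09%. Part of the calls is thus of the kind that counting error alone gives. Of the 6657 genes with at least 100 UMIs, 64 were higher and 42 lower, all with intervals that left out 0. A gene is called higher or lower below only past that 2-fold limit, unless its values are given. The counts of each list below are to be set against these 2.67% and 2.77% of all tested genes. By the bound of the interval nearest to 0, the 15 genes farthest up detected in 5% or more of either group's cells included Krt83, Tcrg-C4, Tmem176b, Cxcr6, Tmem176a, Cd200r1, Il7r, Ckb, Acpp, Gpr183, Rora, Serpinb1a, Gm36723 and S100a4. The 15 farthest down were Cma1, Gm28347, Mxi1, Ret, 4732440D04Rik, Cmah, Khdc1a, Gzma, Eomes, Klra1, Stk32c, Lair1, Serpinb9b, Socs7 and Klra9.

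**Figure D1:**
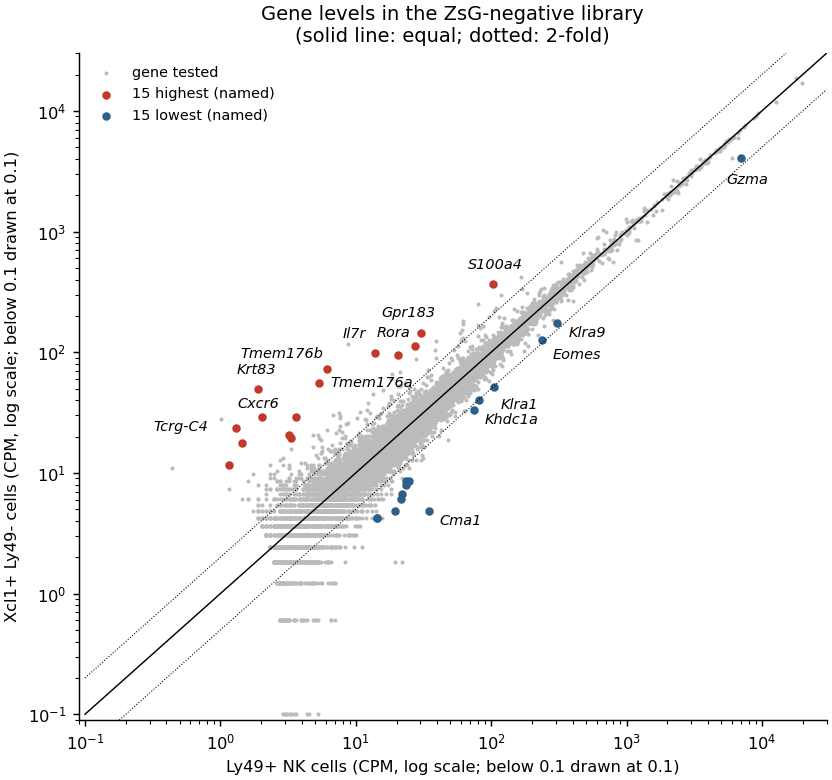
Level of each tested gene (CPM, log axes) in the 1298 Ly49+ NK cells (x axis) and the 290 Xcl1+ Ly49- cells (y axis) of the ZsG-negative library, 1 point per gene. Most genes lie near the solid line of equal levels, Il7r and Krt83 lie far above it, and Cma1, Eomes and Gzma lie below it.

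Genes of the ILC1 list gave the clearest difference. Of its 14 genes 12 were tested, and 9 of these were higher and 0 lower, against the 2.67% of all tested genes that were higher. The median log2 ratio over the 12 was 2.10, and the summed level of the list was 845 CPM in Xcl1+ Ly49- cells and 416 CPM in Ly49+ NK cells. Il7r, the receptor chain for the survival cytokine IL-7 (chr15:9505788-9530176), had 163 UMIs in 62 of the 290 cells and 95 UMIs in 43 of the 1298 NK cells, 99.0 against 13.8 CPM (log2 ratio 2.84, 2.47 to 3.22). Cxcr6, the receptor for the membrane-bound chemokine CXCL16 (chr9:123806475-123811760), had 48 UMIs in 25 cells and 14 UMIs in 14 NK cells (3.80, 2.96 to 4.81). Rora, a nuclear receptor needed by several innate lymphoid lineages (chr9:68653786-69388246), stood at 95.4 against 20.5 CPM (2.22, 1.88 to 2.56). These 3 genes were detected in 21.4%, 8.62% and 27.6% of Xcl1+ Ly49- cells, so most cells gave no UMI of any one of them.

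Tmem176a and Tmem176b, which encode related ion channel proteins of internal membranes, were 55.3 and 72.3 CPM in Xcl1+ Ly49- cells and 5.38 and 6.11 CPM in Ly49+ NK cells. Their log2 ratios were 3.35 (2.79 to 3.95) and 3.55 (3.05 to 4.11). The genes are neighbours that run in opposite directions and overlap at their 5′ ends (chr6:48840919-48847071 on the plus strand and chr6:48833818-48841496 on the minus strand), away from the 3′ ends that the method counts. Cd200r1, an inhibitory receptor, had 29 UMIs against 10 (3.55, 2.52 to 4.80). Itga1, the CD49a gene (chr13:114953096-115101964), had 27 against 33 (1.78, 0.98 to 2.55) and Inpp4b, a lipid phosphatase, 34 against 36 (1.98, 1.26 to 2.70), in NK cells that held over 4 times as many UMIs. Tnfsf10, the TRAIL gene, stood at 28.6 against 10.2 CPM (1.49, 0.92 to 2.04). Itga1 was detected in only 7.24% of Xcl1+ Ly49- cells. The ILC1 list was thus higher without its best known surface integrin being common.

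Genes of the NK list were mostly lower, by less than 2-fold. All 18 were tested, 0 were higher and 3 were lower (Cma1, Klra1 and Cx3cr1), and the median log2 ratio was -0.70. The list includes Klra1, Klra3, Klra7 and Klra9, of the same family as Klra8 and Klra4, by which the groups were chosen. Their levels may therefore not be independent of the rule, nor may the median and sums of the list. Their part in these values was not tested. The Klra1 and Cx3cr1 calls were not firm, as given below. Over the alternative settings 1 to 5 genes of the list were lower and 0 or 1 higher. The list summed to 7059 CPM in Xcl1+ Ly49- cells and 11116 CPM in Ly49+ NK cells. Gzma (chr13:113093825-113100981) made up most of that sum with 4049 against 6945 CPM (-0.78, -0.82 to -0.74). Eomes (chr9:118478212-118486132) stood at 125 against 238 CPM (-0.92, -1.14 to -0.71) and was detected in 40.3% against 64.1% of the cells. Cma1, a mast cell chymase gene also known in NK cells (chr14:55941451-55944675), had 8 UMIs against 238 (-2.75, -4.06 to -1.83). The integrin Itgam (32.2 against 54.4), the transcription factors Irf8 (848 against 1178), Klf2 (120 against 178) and Zeb2 (57.7 against 96.8) and the pore protein gene Prf1 (564 against 790) were lower by less than 2-fold. S1pr1, an egress receptor, was nearly equal (22.5 against 22.3 CPM), and Ly6c2, which monocytes share, was nearly 2-fold higher (334 against 169 CPM, log2 ratio 0.98, 0.83 to 1.13).

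The remaining Ly49 genes followed the ones the rule used only in part. Of 7 tested, Klra1 and Klra6 were lower, none was higher, and the median log2 ratio was -0.73. Klra1 lay at the limit and was under 2-fold in 9 of 20 alternative settings, over which 1 to 3 genes of the list were lower. Klra7, an inhibitory Ly49 receptor (chr6:130218605-130233322), still stood at 264 CPM against 402 CPM and had a UMI in 37.2% of the cells chosen for lacking Klra8 and Klra4. Klra9 stood at 176 against 308 CPM and Klra3 at 112 against 186 CPM. Ly49- here therefore means without Klra8, Klra4 and Itga2 UMIs, not without Ly49 transcripts. The Klra genes are near-identical neighbours on chromosome 6, so counts of single members are uncertain where reads could be split between copies.

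**Figure D2:**
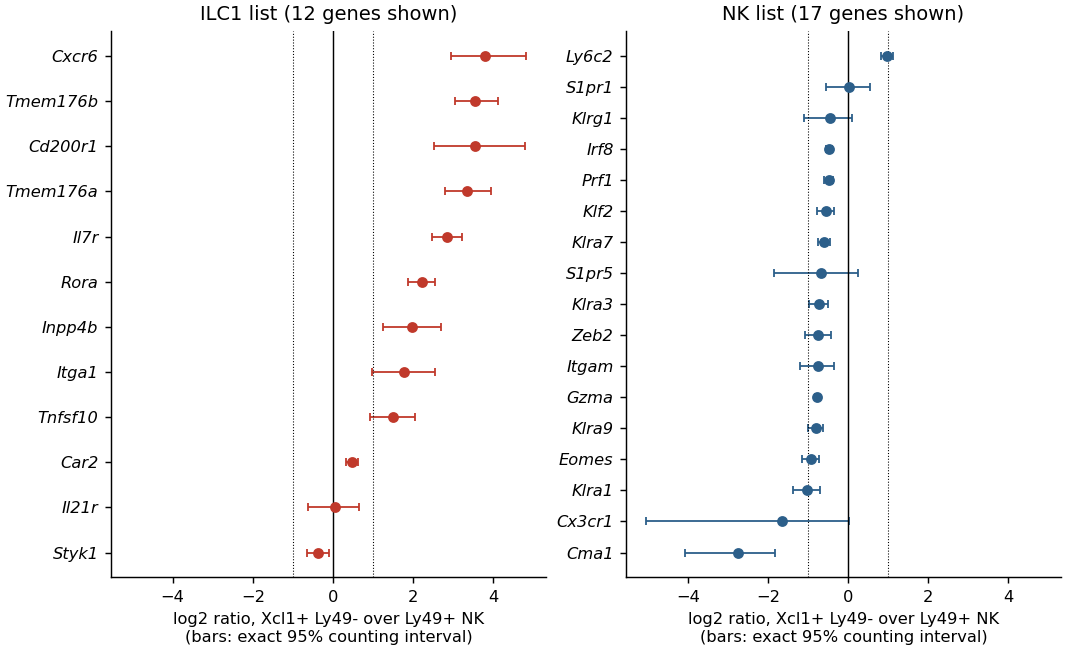
Log2 ratio of each tested gene of the ILC1 list (12 genes) and the NK list (17 of its 18 genes), Xcl1+ Ly49- over Ly49+ NK cells, with its exact 95% counting interval. All ILC1 genes but Styk1 and Il21r lie clearly above 0, and all NK genes shown but Ly6c2 and S1pr1 have ratios below 0.

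In the list of inhibitory receptors 6 of 16 tested genes were higher and 0 lower, against 2.67% and 2.77% of all tested genes. The median log2 ratio of the list, which left out Lair1 (given below), was 0.41. Klrc1, the NKG2A gene (chr6:129666015-129678973), stood at 299 against 118 CPM (1.35, 1.18 to 1.51) and was detected in 65.2% against 30.3% of the cells. Klrb1b, an NK receptor gene beside Klrb1c (chr6:128813706-128826331), stood at 424 against 167 CPM (1.34, 1.21 to 1.48) and was detected in 72.1% against 39.3%. These were the most widely detected of the higher genes, unlike those of the ILC1 list. The others were Lag3 (27 UMIs against 39), Ctla4 (57 against 110), Klri1 (15 against 17) and Cd200r1. Klrd1, the partner chain of NKG2A, was equal at 1124 and 1119 CPM.

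Activating receptors and adaptors stayed close. Of 15 tested, Cd226 and Cd160 were higher and Slamf6 lower, with a median log2 ratio of -0.02. Cd160 was under 2-fold in 5 of the 20 alternative settings. Cd226, the DNAM-1 receptor for nectin-like ligands on tumor cells, stood at 124 against 38.9 CPM (1.67, 1.40 to 1.94). Cd160 stood at 131 against 62.4 CPM (1.07, 0.82 to 1.30) and Slamf6 at 6.68 against 18.2 CPM (-1.39, -2.48 to -0.56). The NKG2D gene Klrk1 (843 and 806 CPM) and the adaptor genes Tyrobp (2454 and 2749) and Fcer1g (1986 and 2019) were near equal. In a list of TNF receptor family genes, which also held the costimulatory receptor genes Cd28 and Icos of the immunoglobulin family, 0 of 10 tested genes were higher or lower. Cd28 was the farthest up, at 124 against 63.7 CPM (0.96).

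Most killing genes had close levels. Of 16 tested, only Tnfsf10 was higher and Gzmk and Serpinb9b, the latter a granzyme inhibitor, were lower, and the median log2 ratio was -0.04. Gzmk and Serpinb9b were each under 2-fold in 9 of the 20 alternative settings, so neither call was firm. Gzmb stood at 849 against 1208 CPM (-0.51), while Nkg7 (2073 and 2379 CPM), Ctsw (528 and 452) and Fasl (204 and 251) were closer still. Of 18 cytokine and chemokine genes outside the rule, Lta, Ccl1 and Spp1 were higher and Tnf and Ccl6 lower, of which Tnf was under 2-fold in 8 and Ccl6 in 5 of the 20 alternative settings. The sums of Ccl1 and Lta came from few cells: 186 of the 192 Ccl1 UMIs and 32 of the 46 Lta UMIs lay in 1 cell each. Ccl5 stood at 4065 against 6037 CPM (-0.57), Ifng at 74.1 against 60.7 CPM (0.29), and Ltb, the lymphotoxin β gene, at 564 against 327 CPM (0.79), with a UMI in 77.9% against 52.5% of the cells.

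Receptors for migration and cytokines differed in a few members. Of 11 chemokine and egress receptors, Cxcr6 and Gpr183 were higher and Ccr7 and Cx3cr1 lower. Gpr183, which senses oxysterols and positions lymphocytes (chr14:121952551-121965195), stood at 143 against 30.1 CPM (2.25, 1.98 to 2.53). Cx3cr1 rested on 2 against 32 UMIs, and the interval of its ratio reached 0.03. Ccr2 was near equal at 481 and 548 CPM. Of 21 adhesion and residence genes 4 were higher (Itga1, Itgb3, Ly6a and Cd81) and 0 lower, with a median log2 ratio of 0.35. Itgb3, an integrin chain, stood at 43.1 against 18.3 CPM (1.24) and Ly6a, the Sca-1 gene, at 182 against 61.6 CPM (1.56), while 55.6% of the 18 Cd81 UMIs lay in 1 cell. Of 18 cytokine receptor genes, Il7r and Il2ra were higher. Il2ra, the high-affinity IL-2 receptor chain, stood at 30.4 against 6.84 CPM (2.15, 1.55 to 2.76), whereas Il2rb, the chain shared by IL-2 and IL-15, stood at 964 against 1043 CPM.

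Of 32 transcription factor genes tested, Rora and Ikzf2 were higher and 0 were lower, against 2.67% and 2.77% of all tested genes. Ikzf2, the Helios gene, stood at 145 against 59.2 CPM (1.30, 1.06 to 1.53). Tbx21, which encodes T-bet and is needed by both NK cells and ILC1, stood at 88.7 against 73.5 CPM, Id2 at 462 against 495 CPM and Tcf7 at 142 against 146 CPM. Immediate activation genes differed little: of 31 tested, 2 were higher (Egr2 and Egr3, with 8 and 19 UMIs) and 0 lower, and the median log2 ratio was 0.08. Glycolysis and hypoxia genes had 1 of 22 higher (Hilpda) and a median of 0.07, and heat shock genes had 2 of 14 higher and 1 lower. In the heat shock list 81.4% of the Hspa1a UMIs of Xcl1+ Ly49- cells lay in 1 cell. With no Xcl1 limit 0 tested genes of that list were higher, and thinned before the rule 0 were higher or lower. Interferon genes had 6 of 27 higher and 0 lower, with a median of 0.28. Isg15, a ubiquitin-like protein induced by interferon, stood at 218 against 104 CPM (1.06, 0.88 to 1.25) and Ifit3 at 31.6 against 7.57 CPM (2.06, 1.48 to 2.64). The Ifit3 UMIs of Xcl1+ Ly49- cells lay in only 6.55% of these cells, with 13 of the 52 in 1 cell.

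Cell cycle genes were higher in 15 of 29 cases and lower in 0, with a median log2 ratio of 1.08, but few cells carried them. Mki67 stood at 105 against 38.7 CPM, with a UMI in 5.52% against 4.39% of the cells, and 3 cells held 52.3% of its UMIs. Top2a stood at 152 against 61.3 CPM, with a UMI in 12.8% against 7.94% of the cells, and 3 cells held 43.2%. Without the 5% deepest cells of each group the median of the list was 0.12 and the Mki67 ratio was -0.69. By the same setting 1 of 24 tested genes of the list was higher and 1 lower, and with each cell weighted equally 8 of 29 were higher. At 3000 UMIs per cell Top2a was detected in 9.52% (6.32 to 13.6) against 4.97% (3.79 to 6.39).

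Of the genes farthest up and down that have not been described above, Krt83, a hair keratin gene (chr15:101485130-101491512), had the largest ratio, with 82 UMIs in 41 Xcl1+ Ly49- cells and 13 UMIs in 12 Ly49+ NK cells (4.67, 3.87 to 5.69). No cell held more than 8.54% of its UMIs. Tcrg-C4, a T cell receptor γ constant gene (chr13:19344558-19352756), had 39 UMIs in 26 cells against 9 UMIs in 5 NK cells. S100a4, a calcium-binding protein of motile cells, stood at 371 against 103 CPM (1.84, 1.68 to 2.00). The brain creatine kinase gene Ckb had 48 UMIs against 25, the phosphatase gene Acpp 19 against 8, the protease inhibitor gene Serpinb1a 34 against 22 and Gm36723 187 against 189. Below, Khdc1a stood at 33.4 against 74.2 CPM and was under 2-fold in 6 of the 20 alternative settings. Ret, a receptor kinase, stood at 6.68 against 22.1 CPM, Cmah, a sialic acid hydroxylase gene, at 7.90 against 23.4 CPM, and Lair1, an inhibitory collagen receptor, at 4.25 against 14.4 CPM. Mxi1, Stk32c, Socs7, Gm28347 and 4732440D04Rik had between 7 and 14 UMIs in Xcl1+ Ly49- cells.

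Markers of other cell types were checked over whole lists. Of the T cell list 8 of 12 genes were tested and 1 was higher (Bcl11b, 12 UMIs against 21), the list summed to 1130 against 911 CPM, its most abundant gene was Trbc1 (602 against 547 CPM), and Cd4 and Foxp3 were at 0. Of the γδ T cell list 3 of 7 were tested, Tcrg-C4 was higher, the list summed to 79.6 against 81.8 CPM, its most abundant gene Trdc stood at 40.1 against 65.1 CPM, and Trgv2 and Sox13 were at 0. Of the ILC3 list 2 of 10 genes were tested and Lta was higher, while Il22, Il17a, Il17f, Il23r, Il1r1 and Ccr6 were at 0. Kit, its most abundant gene, stood at 55.3 against 43.7 CPM, within a sum of 83.2 against 45.1 CPM. Of the ILC2 list 4 of 10 were tested and Calca was higher (12 UMIs against 18), while Il1rl1, Il5, Il13, Il4 and Il17rb were at 0. Gata3, its most abundant gene, stood at 60.2 against 50.5 CPM, within a sum of 94.8 against 87.2 CPM. Gata3 and Kit were thus detected in both groups, while the cytokine and receptor genes listed at 0 were not detected at this depth.

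Transcripts of myeloid cells were present at a low level in both groups. Of the macrophage and monocyte list 12 of 15 genes were tested, Cd74 and H2-Aa were higher and Apoe lower. With their direction kept, Cd74, H2-Aa and Apoe were under 2-fold in 7, 8 and 4 of the 20 alternative settings. H2-Aa also changed sign in a further setting, given below. The list summed to 1021 against 758 CPM, led by Ly6c2. Lyz2 stood at 224 against 253 CPM, and 3 Xcl1+ Ly49- cells held 88.0% of its UMIs there. Of the dendritic cell list 6 of 10 were tested, Batf3 was higher and Siglech and Ccr7 lower, its sum was 89.3 against 125 CPM, led by Itgax, and Xcr1 and Flt3 were at 0. These directions were not firm: 11 of the 12 Batf3 UMIs lay in 1 cell and its ratio was below 0 in 5 alternatives, Siglech was at 1.73 with no Xcl1 limit, and Ccr7 was at 1.02 when cells were thinned before the rule. Of the B cell list 1 of 6 genes was tested and 0 were higher or lower, and its most abundant gene Ighm stood at 86.3 against 76.1 CPM. No melanocyte or neutrophil gene reached the limit for testing, and 8 of 9 melanocyte genes and 4 of 6 neutrophil genes were at 0. Without cells that held myeloid or B cell transcripts the H2-Aa ratio was -0.37, while the ILC1 list kept its direction.

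Shares of cells with a UMI depend on depth, so cells were also thinned to 3000 UMIs each, which left 273 Xcl1+ Ly49- and 1147 Ly49+ NK cells (17 and 151 shallower cells were left out). The share with an Il7r UMI was then 15.4% (11.3 to 20.2) against 2.79% (1.92 to 3.92), with Rora 20.1% (15.6 to 25.4) against 5.49% (4.25 to 6.97) and with Cxcr6 5.86% (3.39 to 9.34) against 0.61% (0.246 to 1.25). Klrc1 was detected in 51.6% against 22.9% and Klrb1b in 60.1% against 30.9%. Eomes was detected in 29.3% against 47.8%, Gzma in 78.0% against 96.2% and Klra7 in 31.9% against 50.4%. None of these intervals of the groups overlapped. C1q-high cells of the ZsG-positive library, macrophages by their C1q transcripts, were deeper before thinning (median 13037.5 UMIs). They gave 1.37% for Klrc1, 0.588% for Eomes, 2.11% for Gzma and 0.392% for Klra7. For Il7r, Tmem176b and Cd200r1 they gave 12.1%, 6.57% and 16.7%, against 15.4%, 11.4% and 5.13% in Xcl1+ Ly49- cells. They also gave 5.34% for Klrb1b, 4.70% for Tmem176a and 3.33% for Tnfsf10, against 60.1%, 9.89% and 7.69% in Xcl1+ Ly49- cells, and 1.62% for Rora, 1.86% for Itga1 and 0.882% for Cxcr6. Macrophages can express some of these genes themselves. Their library also held only 84 cells past the Ncr1 and Klrb1c, Cd3 and C1q limits, against 2069 in the ZsG-negative library. The C1q-high cells thus give no measure of free RNA in the ZsG-negative library for any of these genes. The Ly49+ NK cells of the ZsG-negative library are the closer comparison.

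**Figure D3:**
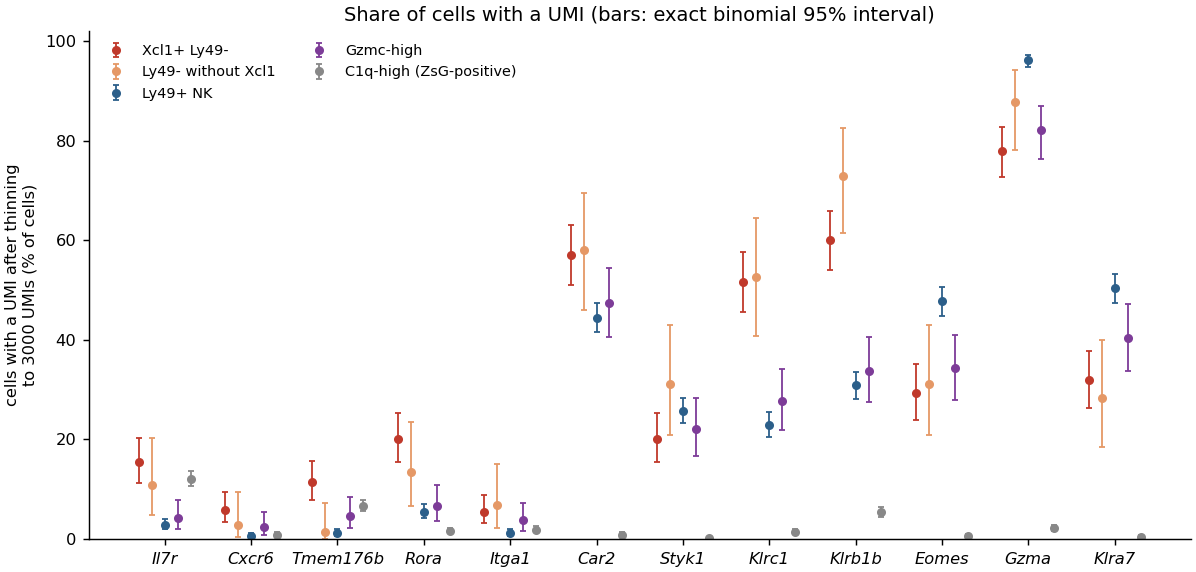
Share of cells with a UMI of each gene after thinning to 3000 UMIs (percent, with exact binomial 95% intervals) in Xcl1+ Ly49- cells, Ly49- cells without Xcl1, Ly49+ NK cells and Gzmc-high cells of the ZsG-negative library and in C1q-high cells of the ZsG-positive library. Xcl1+ Ly49- cells have higher shares of Il7r, Cxcr6, Tmem176b, Rora, Klrc1 and Klrb1b and lower shares of Eomes, Gzma and Klra7 than Ly49+ NK cells, and Ly49- cells without Xcl1 have Klrc1, Klrb1b and Eomes shares near theirs.

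The ILC1 genes were spread unevenly over the Xcl1+ Ly49- cells. Of the 10 genes of the list that were tested, leaving out Car2 and Styk1, 114 of the 290 cells had a UMI of none, 85 of 1, 34 of 2 and 57 (19.7%, 15.2 to 24.7) of 3 or more. Among Ly49+ NK cells 12 of 1298 (0.924%, 0.479 to 1.61) had 3 or more. Among Gzmc-high cells (described below), which were over 2-fold deeper, 34 of 213 had 3 or more, with an interval of 11.3% to 21.6% that overlapped the one of Xcl1+ Ly49- cells. At 3000 UMIs per cell, 50.9% of Xcl1+ Ly49- cells, 82.2% of Ly49+ NK cells and 65.7% of Gzmc-high cells had no UMI of these genes, and 8.79%, 0.436% and 2.35% had 5 or more. UMIs of the NK list per cell, those of its Klra genes included, had a median of 19 (quartiles 8 and 32) against 29 (19 and 45) in Ly49+ NK cells. In Gzmc-high cells the median was also 19 (12 and 30). The groups overlapped widely in both sums, and it was a minority of Xcl1+ Ly49- cells that stood apart.

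**Figure D4:**
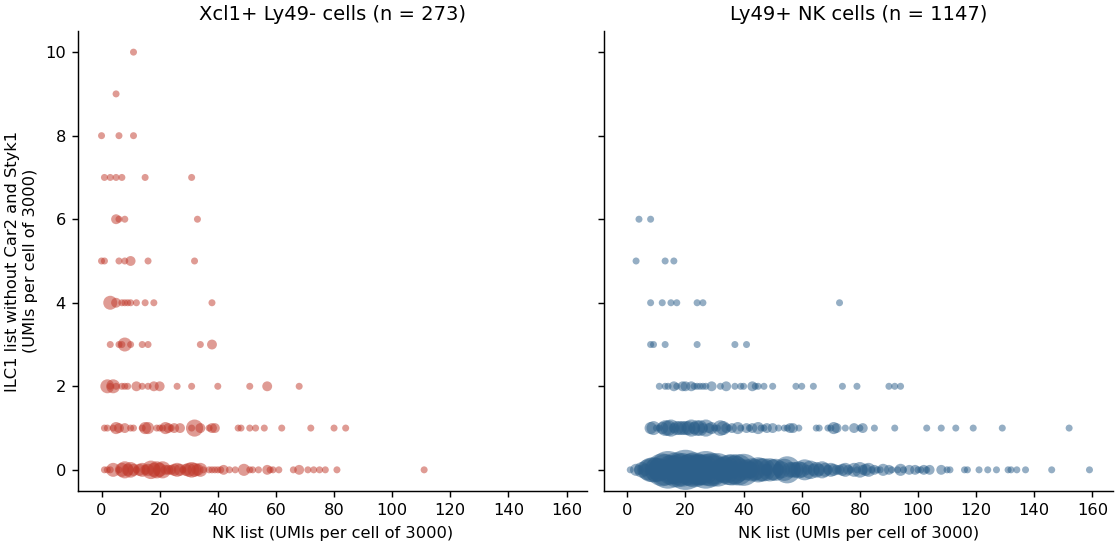
UMIs of the NK list (x axis) and of the ILC1 list without Car2 and Styk1 (y axis) in each cell after thinning to 3000 UMIs, for 273 Xcl1+ Ly49- cells (left) and 1147 Ly49+ NK cells (right). The area of a point is proportional to the number of cells, and cells with 5 or more ILC1 UMIs are 8.79% on the left and 0.436% on the right.

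Splitting the Xcl1+ Ly49- cells by an Il7r UMI, a split chosen after the values had been seen, showed which genes went together within them. The 62 cells with an Il7r UMI had a median of 5118 UMIs and the 228 without one 4522.5. The 5 genes farthest up with Il7r were Lta (40 UMIs against 6, 32 of them in 1 cell), the chemokine gene Ccl4 (1212 against 302 CPM, with a UMI in 38.7% against 40.4% of the cells), Cxcr6, Ckb and Tmem176b, and the 5 farthest down Klra7, Lyz2, Khdc1a, Gzma and Serpinb9b. The cycle genes Mki67 (222 against 68.4 CPM) and Top2a (307 against 104 CPM) were also higher with Il7r, with a Top2a UMI in 12.9% against 12.7% of the cells. Cells with Il7r had 178 against 39.8 CPM of Tmem176b, 82.5 against 12.7 CPM of Cxcr6, 168 against 73.1 CPM of Rora, 333 against 85.1 CPM of Gpr183 and 111 against 31.0 CPM of Krt83. They had 1214 against 4924 CPM of Gzma (log2 ratio -2.02, -2.16 to -1.88), 353 against 1002 CPM of Gzmb and 317 against 641 CPM of Prf1. Eomes had a UMI in 12.9% of cells with Il7r and 47.8% of cells without, and Klra7 in 4.84% and 46.1%. Ncr1 (655 and 567 CPM), Ccl5 (4034 and 4075 CPM), Klrc1 (345 and 285 CPM), Car2 (312 and 312 CPM) and Tbx21 (82.5 and 90.6 CPM) were close. Klrb1c was lower with Il7r, at 356 against 554 CPM (-0.64, -0.91 to -0.37). Kit was higher, at 90.2 against 44.5 CPM (1.03, 0.37 to 1.65). Tmem176b, Cxcr6, Rora, Gpr183 and Krt83 were thus high in the cells that were low in Gzma, Gzmb, Eomes and Klra7. The rest of the ILC1 list did not all go the same way, with Styk1 at 49.0 against 89.8 CPM (log2 ratio -0.84, -1.66 to -0.17) and intervals that reached across 0 for Tnfsf10 (0.34, -0.74 to 1.27) and Inpp4b (1.03, -0.11 to 2.07).

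The split by an Eomes UMI, also chosen after the values had been seen, gave 117 cells with and 173 without one. Eomes+ cells had 1 Cxcr6 UMI against 47 and 25 Il7r UMIs against 138, with 34.4 against 150 CPM of Il7r (log2 ratio -2.10, -2.80 to -1.50). Rora (-1.20), Tmem176a (-1.21), Tmem176b (-1.28) and Cd200r1 (-1.82) were also lower with Eomes. Styk1 went the other way (0.77, 0.26 to 1.30). The intervals of Car2 (0.04), Tnfsf10 (-0.09), Inpp4b (-0.51) and Itga1 (-0.86) reached across 0. Klra7 stood at 359 against 188 CPM and Gzma at 4667 against 3560 CPM, but Gzmb at 781 against 902 CPM (-0.21, -0.36 to -0.05, with a UMI in 73.5% against 64.2% of the cells, and 67 of the 829 UMIs without Eomes in 1 cell) and Klra3 at 96.3 against 124 CPM (-0.36, -0.82 to 0.08). A Gzma UMI was found in 76.3% of the cells without an Eomes UMI. The part of free RNA in that share was not measured. The 21 cells with an Itga1 UMI had 267 against 87.2 CPM of Il7r and 110 against 17.6 CPM of Tcrg-C4. Cd200r1 (log2 ratio 1.97), Inpp4b (1.69) and Car2 (0.56) also had intervals above 0 in this split. The intervals of Rora (-0.51), Styk1 (-1.02), Cxcr6 (0.12), Tmem176a (1.01), Tmem176b (0.58) and Tnfsf10 (0.87) reached across 0. Eomes stood at 119 against 126 CPM there (-0.02, -1.01 to 0.74) and had a UMI in 28.6% against 41.3% of the cells, a difference that 21 cells cannot settle.

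**Figure D5:**
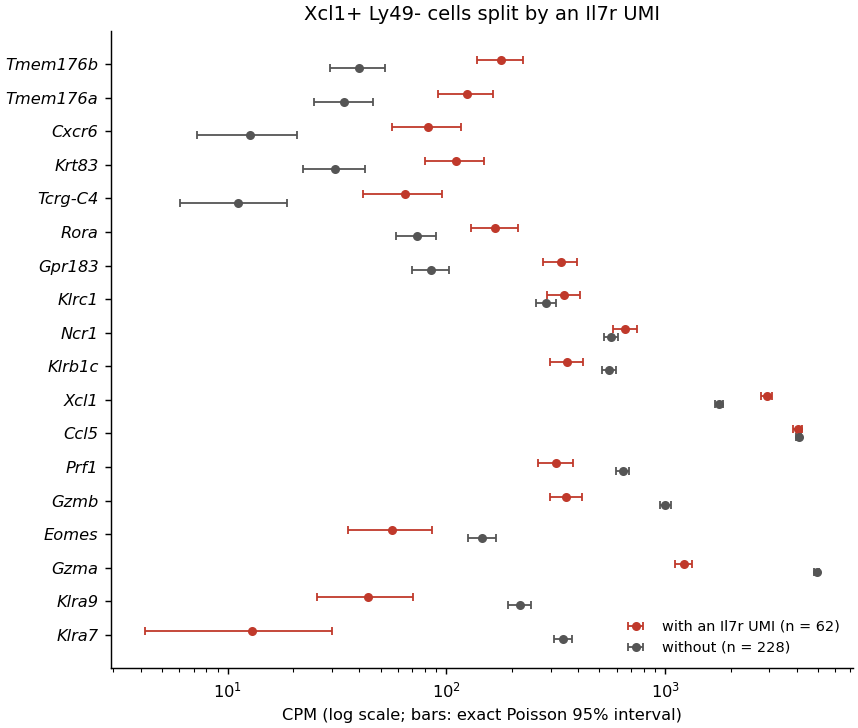
Levels (CPM, log axis, with exact Poisson 95% intervals) of 18 genes in Xcl1+ Ly49- cells with an Il7r UMI (n = 62) and without one (n = 228). Tmem176b, Tmem176a, Cxcr6, Krt83, Tcrg-C4, Rora and Gpr183 are higher with Il7r, and Prf1, Gzmb, Eomes, Gzma, Klra9 and Klra7 are lower.

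The cells that met every limit but had no Xcl1 UMI show what that limit set apart. These 97 cells were shallower (median 3743 UMIs) and held 422101 UMIs. Of 7225 genes tested, 321 (4.44%) were higher in Xcl1+ Ly49- cells and 319 (4.42%) lower. The 5 farthest up were Hist1h1b (250 against 21.3 CPM), Top2a (152 against 11.9), Spc24 (74 UMIs against 0), Mki67 (105 against 7.11 CPM) and Spp1 (124 against 14.2 CPM), of which the first 4 belong to dividing cells. Few cells carried them. Hist1h1b had a UMI in 11.4% against 8.25% of the cells, Top2a in 12.8% against 5.15% and Mki67 in 5.52% against 1.03%. Spc24 was detected in 5.17% against 0% and Spp1 in 11.0% against 4.12%. In Xcl1+ Ly49- cells 3 cells held 54.4% of the Hist1h1b UMIs. The 5 farthest down were Rnase6, Ctsl, Lair1, Ly86 and Cybb, with 5 to 24 UMIs in Xcl1+ Ly49- cells and 21 to 58 in the others, all found in myeloid cells and detected in 5.15% to 8.25% of the cells without Xcl1. At 3000 UMIs per cell, which 74 of the 97 cells reached, Klrc1 was detected in 52.7% (40.7 to 64.4) of the cells without Xcl1, Klrb1b in 73.0% (61.4 to 82.6) and Eomes in 31.1% (20.8 to 42.9), intervals that held or overlapped those of Xcl1+ Ly49- cells. The ILC1 genes were not alike: Tmem176b was detected in 1.35% (0.0342 to 7.30) against 11.4% (7.85 to 15.7), while Il7r in 10.8% (4.78 to 20.2), Rora in 13.5% (6.68 to 23.5) and Itga1 in 6.76% (2.23 to 15.1) had intervals that overlapped those of Xcl1+ Ly49- cells. The higher Klrc1 and Klrb1b and the lower Eomes were thus seen in Ly49- cells with and without Xcl1. They were not particular to Ly49- cells: of the cells with 1 UMI of Klra8, Klra4 and Itga2, 148 of 171 reached that depth, and Klrc1 was detected in 43.9% of them (35.8 to 52.3), Klrb1b in 56.8% (48.4 to 64.9) and Eomes in 39.2% (31.3 to 47.5). Of the 10 ILC1 genes, 3 or more had a UMI in 5.15% of the cells without Xcl1 (1.69 to 11.6), against the 19.7% above, at unequal depths. At 3000 UMIs per cell 4.05% of them had 5 or more UMIs of these genes, against 8.79%, and 14.9% against 19.0% had 5 or more with Car2 and Styk1 counted.

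Gzmc-high cells, the 213 cells with 5 or more Gzmc UMIs among those past the Ncr1 and Klrb1c, Cd3 and C1q limits, were the deepest of these groups (median 11493 UMIs). Of 8832 genes tested, 496 (5.62%) were higher in Xcl1+ Ly49- cells and 423 (4.79%) lower. Farthest down were the granzyme genes neighbouring Gzmc. Gzmd had 0 UMIs against 1203, at least 234-fold lower by a floor of 3 UMIs over the Xcl1+ Ly49- cells, Gzme stood at 3.04 against 196 CPM and Gzmf at 4.86 against 63.9 CPM, beside Gm44040 (1 UMI against 77) and the osteopontin gene Spp1 (124 against 907 CPM). Gzmd, Gzme and Gzmf had a UMI in only 23, 29 and 13 of the 213 Gzmc-high cells, and Spp1 in 111. Farthest up were Lyz2 and Il1b, where 3 Xcl1+ Ly49- cells held 88.0% and 88.5% of the UMIs, the egress receptor S1pr1 (22.5 against 1.07 CPM), Ifit3 (31.6 against 2.13) and Pmepa1, a target of TGF-β signaling (117 against 13.5). Pmepa1 was the most widely detected of these 5, in 35.2% against 14.1% of the cells.

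Few Xcl1+ Ly49- cells were found in the ZsG-positive library. Its 14 cells were 4.61% (2.54 to 7.61) of all 304, or 1.98% with no Cd3 or C1q UMIs allowed, while 46.7% of all kept cells came from that library, a share that also depends on how many cells were loaded from each gate. Among cells past the Ncr1 and Klrb1c, Cd3 and C1q limits, Xcl1+ Ly49- cells made up 16.7% (9.42 to 26.4) there and 14.0% in the ZsG-negative library, with intervals that overlapped. The 14 cells had a median of 3169.5 UMIs. Farthest up in them against the 290 cells were Lpl (54 UMIs against 0, all in 1 cell), Cxcl9, Ccl7, Ccl6 and Aif1, and farthest down Klra7 (2 UMIs against 434), Gzma (1236 against 4049 CPM), Ctla2a, Cd2 and Prkacb. Myeloid transcripts differed with the gate: Cd74 stood at 4682 CPM in the 14 cells, 1391 CPM in the 50 Ly49+ NK cells and 8900 CPM in the C1q-high cells of that library, and 195 CPM in the Xcl1+ Ly49- cells of the ZsG-negative library. The part of such transcripts in the difference was not tested, and 1 cell held 67 of the 74 Cxcl9, 44 of the 50 Ccl7, 47 of the 69 Ccl6 and 29 of the 43 Aif1 UMIs.

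The same groups were compared in the other libraries. The T cell sort, pooled over its gates, held 7 cells that met the rule and 36 Ly49+ NK cells. Of all 1894 genes tested in it, 156 were 2-fold higher and 196 lower, and 134 and 125 had intervals above and below 0. In the ZsG-positive library of the CD45+ sort 183 of 2110 were higher and 119 lower, with 207 and 132 such intervals. Of the 15 genes farthest up in the ZsG-negative library, 10 had at least 3 UMIs in the T cell sort. Of these, 8 were higher in the cells that met the rule, 6 with an interval above 0. In the ZsG-positive library of the CD45+ sort 9 had at least 3 UMIs and 8 were higher, 6 with an interval above 0. Il7r had 10 UMIs against 3 in the T cell sort, Tmem176b 8 against 3, Rora 9 against 6, Cd200r1 7 against 4 and Krt83 6 against 0, although the cells that met the rule held 53099 UMIs and the NK cells 204362. These UMIs lay in 1 of the 7 cells for Tmem176b and Cd200r1 and in 2 for Il7r, Rora and Krt83. Myeloid transcripts were also in 1 of the 7 cells per gene, with 159 Lyz2, 190 Cd74, 189 Ccl2 and 15 Fcgr1 UMIs, and C1q-high cells gave Cd200r1 in 49.6% of cells before thinning. Their part in these differences was not tested. Of the 15 farthest down, 13 had at least 3 UMIs in each of these libraries. In the T cell sort 10 of the 13 had a ratio of levels below 1, 8 were lower by 2-fold and 4 had an interval below 0. In the ZsG-positive library these counts were 7, 4 and 2. Gzma was past all 3 limits in both, at a log2 ratio of -1.99 (-2.31 to -1.70) and -2.10 (-2.41 to -1.82).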

How the data were processed

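The authors aligned 10x 3′ reads to mm10 with Cell Ranger (6.1.2 in the submitters' notes and the T cell header, 7.0.0 in the header of the CD45+ matrix) and deposited UMI counts per gene and barcode, not normalized, with the libraries of a sort combined and told apart by the barcode suffix. Cells with 1000 to 5999 genes and under 10% mitochondrial UMIs were kept here in both sorts. No doublet caller was run, and leaving out the 5% deepest cells was an alternative. UMIs were summed per cell group with Python 3.11.15 (scipy 1.17.1). Log2 ratios had 0.5 added to each sum, which shifts low genes of the smaller group up, and exact conditional 95% intervals. Genes needed 20 UMIs over both groups, and 13 genes of the rule were left out. With 1 library per gate there was no test between groups, and edgeR 4.0.16 gave only the scaling factors of 1 alternative. The code was checked on simulated data. Genes named were the 15 farthest up and down by the bound nearest 0 (5 in other comparisons), the label markers and, per list, up to 2 each way. Others were picked from the lists after their values were seen, and a few genes are not reported here. The cell group and the 26 lists were chosen with earlier results of these data known. Thinning used seed 1. The libraries of the T cell sort were pooled, since the sources disagree on which gate is which. Positions are from GENCODE vM21 on GRCm38.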

Additional observations from a re-analysis of the deposited data

Results flagged for a closer look

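Only selected genes, not all tested ones, were compared gene by gene between the libraries. In 2 of them the difference between Xcl1+ Ly49- and Ly49+ NK cells ran opposite ways in the ZsG-negative library and the T cell sort. Each of these ratios had an interval that left out 0. Ckb was 2.99 higher on the log2 scale in the ZsG-negative library (48 UMIs against 25), but had 0 UMIs against 18 in the T cell sort, a log2 ratio of -3.27 that depends on the 0.5 added to each sum. Klrc1 was 1.35 higher in the ZsG-negative library (492 UMIs against 808) and had 1 UMI against 38 in the T cell sort, a log2 ratio of -2.74. The sort of T cells held 7 cells that met the rule, and the difference between the libraries was not tested.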

How the results depend on the processing

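With 1 library per gate, no replicate could be left out and the depth of 290 cells limits what low genes can show. Over 20 alternatives the median of the ILC1 list stayed between 1.85 and 2.39 and that of the NK list between -0.74 and -0.42. The count of higher genes was 64 with at least 100 UMIs per gene and 1455 with at least 1, and that of lower genes 42, 836 and, with no Xcl1 limit, 179. Without that limit the NK list median was -0.42. With no Cd3 or C1q UMIs allowed, 1.98% of the cells came from the ZsG-positive library. Of the 66 genes named from the comparison and the lists, 61 were past 2-fold, 30 of them in every alternative, and 9 changed sign in at least 1. Thinned before the rule, Ccr7 was at 1.02, Hspa1a at -0.30 and Hspb1 at 1.45. Without the 5% deepest cells, Birc5 was at -0.81, Mki67 at -0.69 and Batf3 at -1.37. Batf3 was also at -1.64 with no Cd3 or C1q UMIs. The 4 settings that follow were chosen after seeing the data: without cycling cells Batf3 was at -1.28, without Tcrg-C UMIs at -1.61, without Il7r UMIs at -0.88 with Egr3 at -0.30, and without myeloid or B cell transcripts H2-Aa was at -0.37. With no Xcl1 limit Siglech was at 1.73. The causes were not tested.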
